A study of Drosophila melanogaster with 3 samples.

Results

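The dpr and DIP genes of Drosophila melanogaster encode 2 families of neuronal cell-surface proteins, and their loci were examined in a chromatin immunoprecipitation sequencing (ChIP-seq) study of the transcription factor Dichaete (D). Protein-coding genes of the Ensembl annotation were taken where the symbol was dpr followed by a number, or began with DIP-. This gave 21 dpr genes and 11 DIP genes, 32 of the 13945 protein-coding genes on the 6 chromosome arms used. The territory of each gene was the gene itself plus 2 kb on either side. Together the 32 territories, which do not overlap one another, covered 1.71 Mb of the genome.

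The study profiled whole embryos collected at 0-14 h, with both sexes pooled. The embryos came from 1 transgenic line that carries D joined at its C-terminal end to eGFP, and the protein was precipitated with an antibody against GFP. There were 3 biological replicates of this single genotype and stage and no second group. The deposited regions are therefore those of the tagged protein, averaged over all cells of the embryo and over 14 h of development, and the promoter that drives the fusion is not given in the sources used here. In such bulk chromatin, fewer bound cells and weaker binding per cell cannot be told apart.

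Dpr (Defective proboscis extension response) and DIP (Dpr-interacting protein) molecules carry immunoglobulin domains outside the cell, and each DIP binds particular Dprs on a neighbouring cell. Different neuron types express their own combinations of both families, which are known for their roles in the choice of synaptic partners and in the survival and layering of neurons. D is a SoxB protein, a group of factors that bind DNA through an HMG box and that act in the early embryo and in the developing central nervous system. The sites of these factors contain the letters ACAAT. The data show where tagged D was found on DNA; RNA and protein of the dpr and DIP genes were not measured.

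Summits were taken from the IDR-thresholded list, the peaks that the authors kept by their irreproducible discovery rate (IDR), a measure of agreement between replicates. These peaks were found to be the highest of the list called on the pooled replicates. A summit in the IDR list is therefore not always present in every replicate. A gene is called bound here when at least 1 of these summits fell in its territory. Windows of 201 bp centred on 6 of the summits, 1 at each bound gene, are shown. The windows of the weaker DIP-alpha summit, with 2 ACAAT matches, and of the higher dpr20 summit, with 0, are not shown. The sequence is the plus strand of the Release 6 (dm6) assembly from RefSeq, written 5′ to 3′, and capitals mark ACAAT or its reverse complement ATTGT. The windows of DIP-alpha, dpr8 and dpr20 were present in all 3 replicates, and those of DIP-eta, dpr14 and dpr19, which were not, were added after their values were seen. The DIP-alpha window (chrX:3546220-3546420) lies in an intron and holds the highest summit found at any of the 32 genes. The DIP-eta window (chr2L:5610222-5610422) and the dpr8 window (chrX:14331661-14331861) lie in introns as well. The dpr14 window (chrX:7908602-7908802) and the dpr19 window (chr2L:10375866-10376066) lie just upstream of a gene start, and the dpr20 window (chr3L:857750-857950) somewhat farther upstream.
DIP-alpha: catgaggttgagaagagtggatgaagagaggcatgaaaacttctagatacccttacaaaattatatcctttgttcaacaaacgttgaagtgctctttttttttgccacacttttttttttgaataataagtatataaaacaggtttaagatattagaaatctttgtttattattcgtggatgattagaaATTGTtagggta
DIP-eta: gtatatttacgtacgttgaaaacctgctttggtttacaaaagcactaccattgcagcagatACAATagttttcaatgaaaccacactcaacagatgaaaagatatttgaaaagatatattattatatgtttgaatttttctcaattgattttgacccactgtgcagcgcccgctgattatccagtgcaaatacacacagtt
dpr8: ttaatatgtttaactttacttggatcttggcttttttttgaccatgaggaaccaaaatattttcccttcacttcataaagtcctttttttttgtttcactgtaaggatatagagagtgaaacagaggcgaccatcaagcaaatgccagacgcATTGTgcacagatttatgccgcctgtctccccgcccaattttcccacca
dpr14: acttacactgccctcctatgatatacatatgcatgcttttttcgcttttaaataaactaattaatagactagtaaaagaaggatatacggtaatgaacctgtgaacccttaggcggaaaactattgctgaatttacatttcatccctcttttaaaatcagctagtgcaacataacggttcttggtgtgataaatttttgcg
dpr19: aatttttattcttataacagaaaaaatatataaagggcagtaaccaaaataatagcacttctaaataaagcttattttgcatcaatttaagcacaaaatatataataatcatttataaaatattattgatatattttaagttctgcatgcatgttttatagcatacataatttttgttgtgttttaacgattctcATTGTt
dpr20: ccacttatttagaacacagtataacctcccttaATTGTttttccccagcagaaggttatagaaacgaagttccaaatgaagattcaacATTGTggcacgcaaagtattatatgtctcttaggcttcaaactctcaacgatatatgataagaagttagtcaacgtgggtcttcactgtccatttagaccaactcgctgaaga

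Of the 32 dpr and DIP genes, 6 were bound (18.8%), against 30.4% of all protein-coding genes. The bound genes were DIP-alpha, DIP-eta, dpr8, dpr14, dpr19 and dpr20, with 8 summits between them. DIP-alpha and dpr20 held 2 summits each and the other genes 1 each. The split between the families was even, at 4 of 21 dpr genes (19.0%) and 2 of 11 DIP genes (18.2%). The dpr and DIP genes are long, with a median territory of 36525.5 bp against 6166 bp over all genes, and long genes were bound more often in this study. Among the 4438 protein-coding genes whose territories fall in the same range of lengths, 7738 to 383081 bp, 47.3% were bound.

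The shortfall lay in the longer genes. Of the 5 dpr and DIP genes with territories up to 10 kb, 3 were bound, against 24.2% of all genes in that class. These 5 territories ran from 7738 to 9968 bp, in the upper part of the class, so the 2 shares are not matched for length. From 10 to 25 kb 1 of 9 was bound, against 48.3%. From 25 to 50 kb the count was 0 of 8, against 61.1%. Above that, 1 of 6 was bound between 50 and 100 kb, where all genes reached 65.7%, and 1 of 4 above 100 kb, where all genes reached 72.4%. Over all territories above 25 kb, 2 of 18 dpr and DIP genes (11.1%) were bound, beside 617 of 973 protein-coding genes (63.4%). These shares are descriptions of 1 set of peaks and carry no test.

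**Figure D1:**
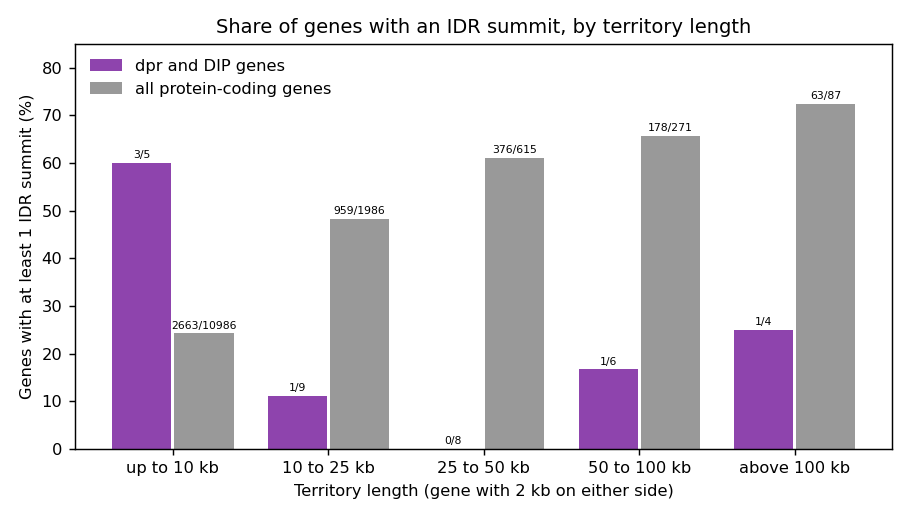
Share of genes with at least 1 IDR summit (percent, vertical axis) in 5 classes of territory length (horizontal axis), for dpr and DIP genes (purple) and all protein-coding genes (grey), with the counts above the bars. The grey bars climb from 24.2% to 72.4% with length, while the purple bars are highest in the shortest class and at 0 of 8 between 25 and 50 kb.

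Counted per length of DNA, the dpr and DIP territories held 4.69 IDR summits per Mb. The figure was 41.8 per Mb over the territories of all protein-coding genes, 43.7 over those of the same length range and 37.7 over the 6 arms. In the 50 kb on either side of the dpr and DIP territories there were 80 summits in 2.86 Mb, which is 28.0 per Mb, more than within the territories and less than over the arms. The dpr genes had 5.13 summits per Mb and the DIP genes 4.09. In dpr and DIP territories above 25 kb the density was 2.01 per Mb, beside 35.2 over all genes of that length. The dpr and DIP densities include dpr21 and DIP-lambda on 2R, with territories of 128513 and 383081 bp. The nearest IDR summits to these genes were 1280301 and 3765464 bp away, and the density without them was not computed.

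Within the DIP family, DIP-alpha carried the highest summit. DIP-alpha (FBgn0052791, X: 3507245 to 3571649, minus strand) encodes a receptor that binds Dpr6 and Dpr10 and takes part in the wiring of motor neurons and of neurons of the visual system. Its main summit, at X 3546320, had a signal value of 822.5, the authors' value for the peak on a scale that is not stated. This was rank 485 in a list whose signal values run from 187.8 to 4534.2 with a median of 309.9. The summit lay in an intron of 26251 bp, 15655 bp from the nearest DIP-alpha start site. The closest start site of any gene was that of ppk8, 11492 bp away. In the lists of replicates 1, 2 and 3 the same position had signal values of 115.5, 346.4 and 360.3 and ranks of 808, 367 and 410. It thus stood among the highest regions of every replicate.

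A weaker DIP-alpha summit, at X 3558906, lay in the same intron and inside ppk8, a gene of the DEG/ENaC sodium channel family that is nested there, 1094 bp from the ppk8 start. Its signal value was 198.8 and its rank 4695, near the lower end of the list. It ranked 2104 in replicate 1, 5999 in replicate 2 and 5415 in replicate 3, with signal values of 57.6, 65.7 and 84.1. All 3 replicates held it, but it ranked lower in replicates 2 and 3 than in replicate 1. Which of the 2 genes this summit serves cannot be read from its position.

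DIP-eta (FBgn0031725, 2L: 5601723 to 5617946, minus strand), another Dpr-binding receptor, had 1 summit at 2L 5610322, with a signal value of 265.1 and rank 3121. It lay in an intron of 2078 bp, 7624 bp from the gene's start. Replicate 1 had a region there with a signal value of 72.0 at rank 1544. Replicates 2 and 3 had none within 200 bp, and their closest summits lay 51356 and 51170 bp away. The DIP-eta call therefore rested on replicate 1 and the pooled signal.

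Among the dpr genes, dpr14 held the highest summit. The summit, at X 7908702, had a signal value of 672.1 and rank 729, and lay 416 bp upstream of dpr14 (FBgn0029974, X: 7903704 to 7908286, minus strand). The closest start site belonged to the neighbouring gene spidey, 229 bp away, whose product is an enzyme of steroid and long-chain fatty acid metabolism. Replicate 2 had the position at a signal value of 245.4 and rank 722, and replicate 3 at 264.2 and rank 782. In replicate 1 the nearest summit was 6961 bp away. Replicates 2 and 3 thus held this summit at almost equal rank and replicate 1 did not list it.

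For dpr19 (FBgn0032233, 2L: 10376168 to 10379905, plus strand) the summit at 2L 10375966 lay 202 bp upstream of the gene's own start, with a signal value of 303.1 and rank 2598. It ranked 2214 in replicate 2, at a signal value of 125.9, and 3960 in replicate 3, at 102.1. Replicate 1 had nothing within 24603 bp. The presence pattern was the same as at dpr14.

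The small gene dpr20 (FBgn0035170, 3L: 852720 to 857248, minus strand) had 2 summits, 1 on each side of it. The upstream summit, at 3L 857850, lay 602 bp before its start in intergenic DNA, with a signal value of 237.5 and rank 3674. Its signal values of 82.3, 85.6 and 75.8 in replicates 1, 2 and 3 gave ranks of 1292, 3997 and 6388. The downstream summit, at 3L 851247, was the higher, at 363.1 and rank 2003, but lay 6001 bp from the dpr20 start and 99 bp from the start of Dci, which encodes an enoyl-CoA isomerase of fatty acid breakdown. Replicates 1, 2 and 3 had it at signal values of 118.4, 137.8 and 106.4 and ranks of 789, 1922 and 3690. Both summits were found in every replicate.

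At dpr8 (FBgn0052600, X: 14322226 to 14462351, plus strand), the longest of the bound genes, the single summit at X 14331761 had the lowest signal value of the 8, at 191.7 and rank 4931. It lay in an intron, 9535 bp from the gene's start, in a territory of 144126 bp. The signal values of 45.8, 53.8 and 88.2 in replicates 1, 2 and 3 corresponded to ranks of 3231, 8150 and 5028. The position was found in all 3 replicates, with its lowest rank in replicate 2. The only other bound gene above 25 kb was DIP-alpha.

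**Figure D2:**
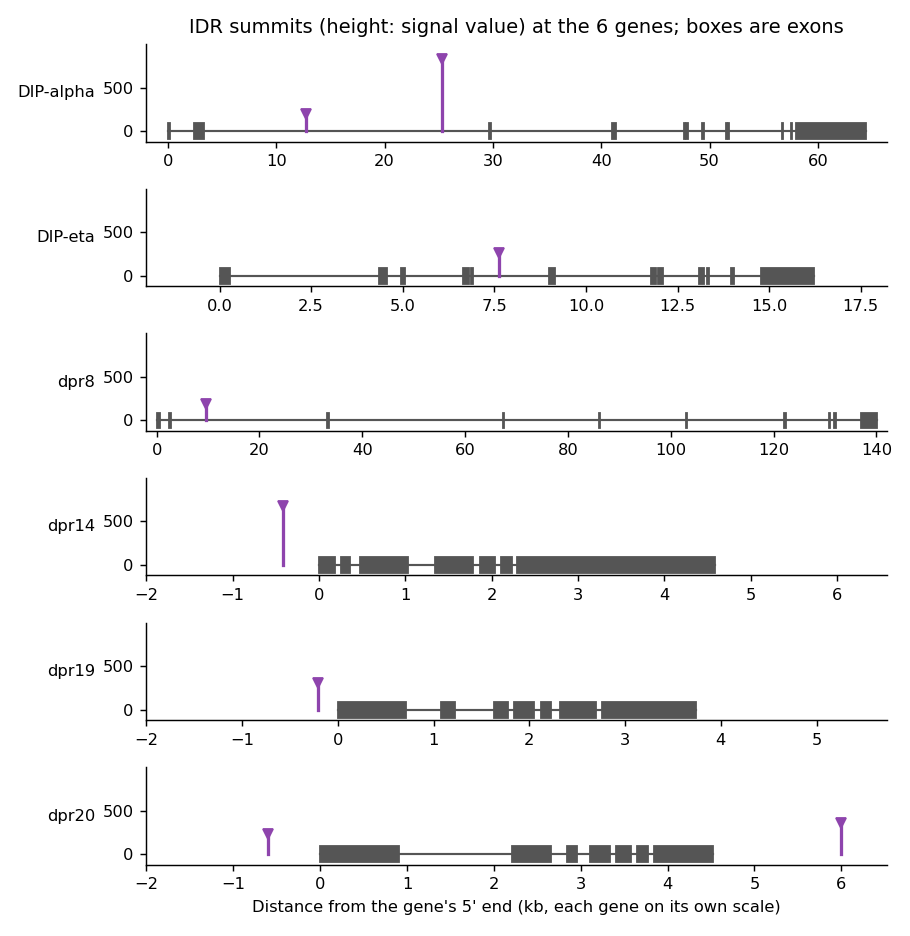
Exons (boxes) and IDR summits (stems, with the signal value as height) at the 6 bound genes, by distance from each gene's 5′ end in kb. The summits of DIP-alpha, DIP-eta and dpr8 fall within introns, and those of dpr14, dpr19 and dpr20 fall in the flanks of short genes.

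The 8 summits thus fell into 4 in introns, at DIP-alpha, DIP-eta and dpr8, and 4 in the flanks of the short genes dpr14, dpr19 and dpr20. Only dpr14 and dpr19 had a summit within 500 bp of an own start site, 2 of 32 genes (6.25%) against 15.3% of all protein-coding genes. Exons held none of the 8. The median of the highest signal per bound gene was 333.1, beside 392.8 over all bound protein-coding genes.

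A summit was called present in a replicate when that replicate's list had a summit within 200 bp. DIP-alpha, dpr8 and dpr20 had at least 1 summit present in all 3 lists, 3 of 32 genes (9.38%), against 13.7% of all protein-coding genes. These 3 genes accounted for 5 of the 8 summits. To leave out a replicate, the IDR list, made from all 3, was filtered and not remade. With replicate 1 left out, summits were kept only where both others ranked them within the length of the IDR list, and 4 genes stayed bound (24.8% of all genes). The same count was 3 without replicate 2 (11.9% of all genes) and 2 without replicate 3 (12.1%), DIP-alpha and dpr20 being bound in each case. Where replicate 1 held a summit at dpr8, at dpr20 or at the weaker DIP-alpha site, it ranked it higher than replicates 2 and 3 did, whereas it ranked the main DIP-alpha summit lower. Replicate 1 lacked the dpr14 and dpr19 summits and was the only replicate with the DIP-eta summit.

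**Figure D3:**
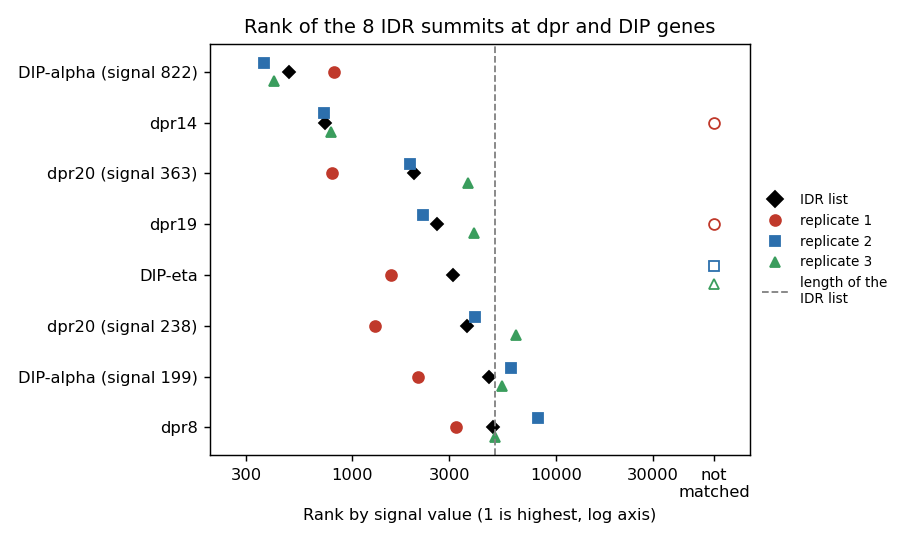
Rank by signal value (log axis, 1 is highest) of the 8 summits in the IDR list (diamonds) and in the list of each replicate (circles, squares and triangles), with open symbols where a replicate had no summit within 200 bp and a dashed line at the number of peaks in the IDR list. The main DIP-alpha summit ranks within the first 1000 in all 4 lists, whereas dpr14, dpr19 and DIP-eta each have at least 1 open symbol.

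The other 26 genes had no IDR summit. The distance from these genes to the nearest one ran from 4425 bp for DIP-iota to 3765464 bp for DIP-lambda, with a median of 22617 bp. Most of the 26 had a region in the pooled list, from which the IDR list was drawn. The pooled list holds 29999 regions on the 6 arms, down to a signal value of 50.1. It is labelled as peaks and background given as input for IDR, so its weaker regions may be background and not binding. At least 1 pooled summit fell in the territories of 25 of the 32 genes (78.1%), against 65.1% of all protein-coding genes. These shares are not matched for length. Per Mb the dpr and DIP territories held 48.6 pooled summits, far fewer than the 237 of all protein-coding genes and the 253 of those in the same length range. The 7 without any were DIP-iota, DIP-lambda, DIP-zeta, dpr4, dpr5, dpr15 and dpr21. DIP-lambda and dpr21 among them have the largest and the fourth largest territories of the 32, at 383081 and 128513 bp.

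Just below the lowest IDR signal of 187.8, with dpr8 at 191.7 on the other side of it, stood dpr1 at 167.7 and dpr6 at 161.9. The dpr1 summit lay 1838 bp from the dpr1 start and was present in replicates 1, 2 and 3, at ranks of 4545, 8471 and 8254. The dpr6 summit was also present in all 3, at ranks of 5315, 8055 and 7011, but lay 103 bp from the start of CG42455 and 1998 bp from that of dpr6. Both genes therefore had a summit seen in every replicate, in the upper part of each list of 29998 or 30000 regions.

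Of the next genes, dpr2 reached 119.2 in an intron and was present in replicate 1 only. The dpr16 summit, at 115.1, lay 106 bp from the dpr16 start and matched no summit of any single replicate. At dpr18 the highest summit was an intronic 109.6, present in replicates 2 and 3, with a second of 77.8 at 52 bp from its start that was also in replicates 2 and 3. The dpr10 summit, at 102.1, lay 12 bp from the dpr10 start and was present in replicates 2 and 3 at ranks of 26661 and 10752. These values fall between ranks 9230 and 11319 of the pooled list.

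The remaining 13 genes with pooled summits topped out between 52.1 and 89.05. DIP-gamma reached 89.05, DIP-kappa 80.0 and DIP-theta 75.7. The values for dpr3, dpr9, dpr7 and dpr11 were 69.2, 66.1, 62.2 and 62.1. Then came DIP-beta at 61.9, dpr12 at 61.0, DIP-epsilon at 57.4, dpr13 at 55.0, dpr17 at 54.95 and DIP-delta at 52.1. The median signal value of the pooled list is 83.3, so DIP-gamma stood above it and the other 12 genes below it.

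**Figure D4:**
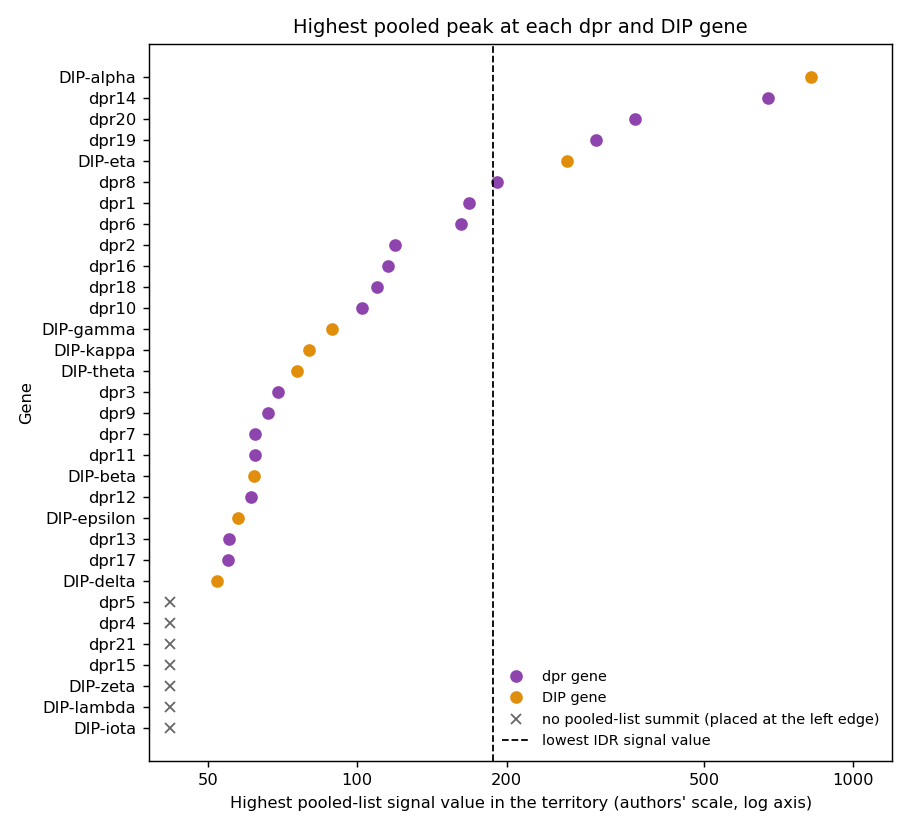
Highest pooled-list signal value in the territory of each dpr gene (purple) and DIP gene (orange), on a log axis, with crosses at the left edge for the 7 genes with no pooled summit and a dashed line at the lowest IDR signal of 187.8. The 6 bound genes lie to the right of the line, dpr1 and dpr6 just left of it, and most others below 100.

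Some receptors and known binding partners can be set side by side, as examples and not as a full list of pairs. DIP-alpha, at 822.5, had the highest value of all 32 genes, whereas its partners Dpr6 and Dpr10 are encoded by genes that reached 161.9 and 102.1 and were not bound. DIP-gamma and dpr11, which encodes a partner of it, had 89.05 and 62.1, and neither was bound. DIP-delta and its partner dpr12 had 52.1 and 61.0, again without an IDR summit.

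In all, 75 pooled summits below the IDR threshold fell in the 32 territories, with a median signal value of 62.2 and a highest of 173.6 in the dpr14 territory. Only 8 of these were at most 500 bp from a start site of the same gene. A match was found in replicate 1 for 41 of them (54.7%), in replicate 2 for 11 (14.7%) and in replicate 3 for 16 (21.3%), and 21 had none. Over all pooled summits below the threshold the shares were 29.2%, 61.6% and 64.0%. Those present in replicate 1 alone numbered 37 (49.3%), beside 10.6% of all 24952 pooled summits below the threshold. The weak pooled summits at dpr and DIP genes were thus matched in replicate 1 more often than those of the whole list. The 2 sets were not matched for gene length, place or signal value. Protein-coding genes above 25 kb with no IDR summit in general had 275 regions per Mb in replicate 1, beside 45.7 and 44.2 in replicates 2 and 3.

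The separate lists of the 3 replicates, each with 29998 or 30000 regions on the 6 arms, differed widely at these genes. Replicate 1 had at least 1 region in 30 of 32 territories (93.8%), against 48.7% of all protein-coding genes. Replicate 2 had 9 of 32 (28.1%), against 67.6%, and replicate 3 had 10 of 32 (31.2%), against 66.3%. The exceptions in replicate 1 were dpr18 and dpr19, which had none there. Replicate 1 lay above the background of all genes and replicates 2 and 3 below it. Regions of replicate 1 were common in long genes in general, at 2777 of 4438 genes of the same length range and at 925 of 973 genes above 25 kb, where the dpr and DIP genes had 18 of 18. Above 25 kb, replicates 2 and 3 had regions in 808 and 782 of the 973 genes and in 5 and 6 of the 18.

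Region numbers followed the same order. The 32 territories held 518 regions of replicate 1, 32 of replicate 2 and 29 of replicate 3. Per Mb these were 303, 18.7 and 17.0, beside 213, 247 and 248 over the territories of all protein-coding genes. The median gene had 11.5 regions in replicate 1 and 0 in each of the others. The highest counts in replicate 1 were 67 at dpr6, 52 at DIP-lambda, 38 at dpr8 and 37 at dpr21. In replicates 2 and 3, dpr6 had 1 region each, dpr8 had 3 each, and DIP-lambda and dpr21 had none. DIP-alpha had 16, 9 and 8 regions in replicates 1, 2 and 3, the most for any of these genes in replicates 2 and 3.

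**Figure D5:**
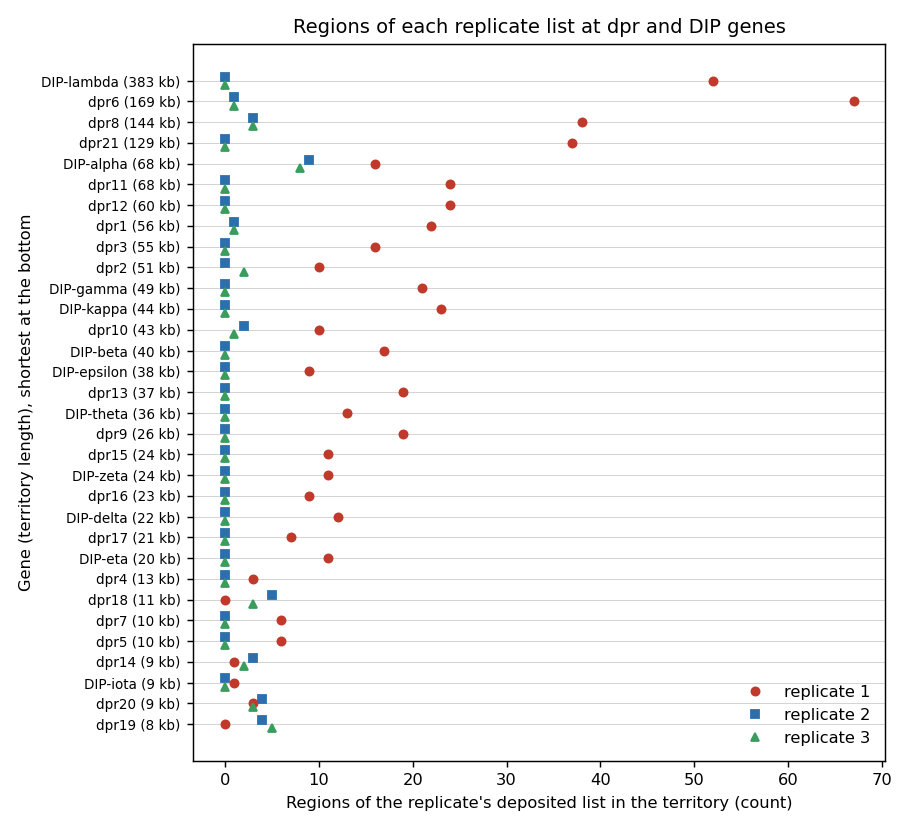
Number of regions in the territory of each gene (ordered by territory length) in the list of replicate 1 (circles), replicate 2 (squares) and replicate 3 (triangles). Replicate 1 reaches 67 regions at dpr6 and exceeds both others at 28 genes (87.5%, beside 27.5% of all protein-coding genes). Above 25 kb with no IDR summit it does so at 16 of 16 genes, beside 82.0% of protein-coding genes. Regions in replicate 1 and none in replicates 2 and 3 are seen at 22 genes (68.8%, beside 19.6% of all protein-coding genes).

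Replicate 1 exceeded both others at 28 of the 32 genes (87.5%), beside 27.5% of all protein-coding genes and 28.9% of those in the same length range. Among territories above 25 kb it did so at 18 of 18 dpr and DIP genes, beside 51.6% of protein-coding genes. Among those above 25 kb with no IDR summit it did so at 16 of 16, beside 82.0%. At 22 genes (68.8%) it had regions and replicates 2 and 3 had none, a pattern seen at 19.6% of all protein-coding genes and at 12.8% of those in the same length range. The 22 were 12 of the 21 dpr genes and 10 of the 11 DIP genes, DIP-alpha being the exception. At the short genes dpr14, dpr18, dpr19 and dpr20 replicate 1 was not the highest, with 1, 0, 0 and 3 regions in replicate 1, 3, 5, 4 and 4 in replicate 2, and 2, 3, 5 and 3 in replicate 3. Among long genes without an IDR summit (territory above 25 kb) the pattern was common in general: it was seen at 149 of 356 protein-coding genes (41.9%) and at 12 of the 16 dpr and DIP genes (75.0%).

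The 518 regions of replicate 1 were mostly low in its list. Their median signal value was 26.9, beside 28.2 for the whole list, and 35 of them (6.76%) ranked within the number of peaks in the IDR list, which 16.8% of the whole list did. Introns held 83.4% of them, beside 44.3% of the whole list, and start sites 3.48%, beside 9.12%. Only 8 (1.54%) had a match in replicate 2 and 9 (1.74%) in replicate 3, where the whole list had 20.5% and 19.9%. Their median GC content was 43.3%, beside 41.8%. Depth and antibody performance of the replicates are not in the lists, and their part in this difference was not tested.

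The 32 regions of replicate 2 had another make-up. Start sites held 34.4% of them, beside 27.2% of its whole list, and introns 46.9%, beside 42.2%. A match in replicate 3 was found for 20 and in replicate 1 for 8. Of the 29 regions of replicate 3, 41.4% lay at start sites, beside 27.4% of its list. Of the regions of replicate 2 at dpr and DIP genes, 62.5% were thus matched in replicate 3 and 25% in replicate 1, close to the 60.6% and 21.8% of its whole list.

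Sequence features of the 8 windows were counted on both strands within 100 bp of the summit. ACAAT, the Sox core, was found in 6 of 8, beside 52.1% of all IDR windows. It occurred in both DIP-alpha windows and in those of DIP-eta, dpr8, dpr19 and the upstream dpr20 summit. Neither dpr14 nor the summit next to Dci had it. The longer form ACAATGG, which contains ACAAT, was found in none, beside 3.37%. ACAAAG, another sequence read by HMG boxes, was found in 1 (at the main DIP-alpha summit), beside 16.3%. CAGGTA, the core of the site of Zelda, an activator of the early embryonic genome, was found in none, beside 3.88%, and GAGAG, a short form of the GAGA factor site, in 3, beside 23.0%. Median GC content was 34.3% both in the 8 windows and in all IDR windows, with dpr19 lowest at 20.9% and dpr8 highest at 39.8%. With 8 windows, these shares describe the sequences and no more.

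Other sets of surface and synaptic genes gave a scale for the dpr and DIP values, as bound genes of those listed, against the 30.4% of all genes. The beat and side families, immunoglobulin-domain proteins that also pair between motor axons and their surroundings, had 7 of 22 bound and 11.7 summits per Mb, with beat-Ib highest at 995.4, then beat-IIIc at 584.6 and side-IV at 515.4. Other immunoglobulin-domain genes had 14 of 25 bound and 39.7 per Mb, led by kirre, a receptor of myoblast fusion, at 1384.2 with 23 summits, then babos at 1173.1 and Ama at 772.9. Slit, Robo and Netrin guidance genes had 14 of 20 and 49.4 per Mb, led by the Netrin receptors fra at 1087.6 and unc-5 at 1042.6, with the ligand NetA at 859.6.

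Leucine-rich repeat, cadherin and teneurin genes had 16 of 27 bound and 23.2 per Mb, with Toll-7 at 1113.2, Lapsyn at 1004.8 and ds, an atypical cadherin of planar polarity, at 732.1. The genes listed as synaptic organisers had 8 of 18 and 13.3 per Mb. Highest were VAChT and ChAT, which overlap and have the same highest signal value of 569.5, then Nrx-1, a presynaptic adhesion protein, at 469.4. At 4.69 per Mb the dpr and DIP genes had the lowest density of the 6 sets, with beat and side and the synaptic organisers next. For territories above 25 kb the bound genes were 2 of 18 in the dpr and DIP set, 3 of 12 among synaptic organisers, 5 of 17 in beat and side, 8 of 17 in other immunoglobulin-domain genes, 11 of 15 in the leucine-rich repeat and cadherin set and 10 of 13 among guidance genes.

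The sets differed in the replicates as well. Regions in replicate 1 and none in replicates 2 and 3 were found at 12 of 22 beat and side genes (54.5%), 5 of 18 synaptic organisers (27.8%), 5 of 25 other immunoglobulin-domain genes (20.0%), 2 of 27 leucine-rich repeat and cadherin genes (7.41%) and 0 of 20 guidance genes, beside 22 of 32 dpr and DIP genes. The 2 sets with the lowest share of bound genes were also those with this pattern most often. These measures are not independent, because the IDR list comes from the same replicates. Above 25 kb the pattern was seen at 5 of 617 protein-coding genes with an IDR summit (0.81%) and at 149 of 356 without one (41.9%). The part of the replicates in the low share of bound genes was not tested.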

How the data were processed

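D ChIP-seq was analysed in 3 biological replicates of 1 group, per the labels. Per the deposited file lists, regions were called in each replicate and in the pooled replicates against a control, and the IDR list was made from them; aligner, caller and threshold were not given in the sources used here. Column 7, the deposited signal value, is on a scale that is not stated, and was used to describe and rank peaks within a list. The deposited −log10 q values were not used for any result. The IDR list was found to be the highest peaks of the pooled list, in 5011 distinct intervals, so the pooled signal decides entry. The lists give no read counts, so depth is unknown and no interval is given. The dm3 lists were not used here.

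Summits were placed on the arms X, 2L, 2R, 3L, 3R and 4 of Release 6 with the Ensembl annotation (Python 3.11.15, numpy 2.4.6, pandas 2.3.3, matplotlib 3.10.9), and the counting code was tested on simulated data. A position within 500 bp of a protein-coding start was classed as start site first, then as coding exon, UTR, intron or intergenic. Of each other list, the 3 genes with the highest IDR signal are named, of the dpr and DIP genes all with a pooled summit. Of the surface-gene symbols listed, rig-3 and fmi matched no gene of the annotation. The alternatives were another peak threshold, territory, assignment, matching distance and start-site distance, agreement of all replicates, and agreement of the 2 others with each replicate left out. The genes and the lists were chosen with earlier results of these data known, so no p-value is given over them.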

Additional observations from a re-analysis of the deposited data

How the results depend on the processing

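The count of 6 bound genes became 3 with the upper 50% of IDR peaks (19.5% of all genes), 10 with the highest 10000 pooled peaks (43.9%), 3 with summits present in all 3 whole lists (13.7%), 2 with those that also ranked within the length of the IDR list in all 3 (11.3%) and 3 in gene bodies without flanks (11.8%). It was 8 with 5 kb flanks (43.7%) and 5 by nearest start site (20.8%), and 2 to 4 when a replicate was left out. Leaving out a replicate here means keeping the IDR summits that both others ranked within the length of the IDR list. The IDR list still came from all 3 replicates, so this count could only stay or fall. By nearest start site the genes were DIP-delta, DIP-eta, dpr8, dpr19 and dpr20, so DIP-alpha and dpr14, with the highest summits, dropped out. Without replicate 3 only DIP-alpha and dpr20 remained, without replicate 2 DIP-alpha, dpr8 and dpr20, and without replicate 1 DIP-alpha, dpr14, dpr19 and dpr20. The 8 summits became 3, 15, 5, 2 and 4 under the first 5 settings in that order, 12 with 5 kb flanks, and 3 to 4 with a replicate left out. Density fell from 4.69 to 1.76 per Mb with the upper 50% and 2.53 in gene bodies. The 3 genes with a summit in all replicates stayed 3 at 100 and 500 bp and became 2 by rank within the length of the IDR list. The 2 genes with a summit at their own start became 1 at 250 bp and 3 at 1000 bp. Summits per gene were 0.238 for dpr and 0.273 for DIP, and 0.0952 to 0.143 and 0.0909 (lowest and highest) with a replicate left out. For each setting of the count of bound genes, leaving out a replicate included, the bound share of dpr and DIP genes was below that of all genes, from 6.25% against 11.3% to 31.2% against 43.9%. In 2 settings, each with 3 genes, the shares were close. They were 9.38% against 11.8% in gene bodies and 9.38% against 11.9% without replicate 2. No paired analysis was possible because there is 1 group. Depth per replicate is unknown, so genes without a summit may hold binding below what these lists record.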
